A study of Mus musculus with 6 samples.

Results

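The HOX cluster genes of the mouse were examined in fetal testis. Every gene entry whose symbol was Hoxa, Hoxb, Hoxc or Hoxd followed by a number was taken, which gave 38 of 42747 entries: 10 in HoxA, 10 in HoxB, 9 in HoxC and 9 in HoxD. No entry was named Hoxa4, and that gene was not analysed here. The samples were whole testes of mouse embryos at E16.5 (embryonic day), with 3 conditional knockout (cKO) and 3 wild-type (WT) animals. The series title places the function of CK1α, the protein kinase encoded by Csnk1a1, in Sertoli cells, the somatic cells that enclose germ cells in the testis cords. The labels name the groups only as cKO and WT. The sources used here do not give the floxed allele, the Cre driver, the genotype of the controls or the strain of the animals.

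HOX genes encode homeodomain transcription factors and lie in 4 clusters that arose by duplication, so that genes with the same number in different clusters are paralogues. Within a cluster, genes at the low-numbered end are active earlier and further towards the head, and high-numbered genes later and further towards the tail, an order known as colinearity. Polycomb and trithorax complexes, retinoic acid and CDX factors are known regulators of the clusters, and HOX proteins bind DNA with TALE cofactors such as PBX and MEIS. In the urogenital tract, HOX genes of the posterior end of the clusters pattern the reproductive ducts, and several are also transcribed in the gonad.

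In the deposited coordinates, which follow the annotation of the C57BL/6NJ strain, HoxA lies on the minus strand of chromosome 6. HoxB spans chr11:101582476-101764753, HoxC chr15:109047774-109168505 and HoxD chr2:77216639-77320646, all on the plus strand. The homeobox, the stretch of 180 bases that encodes the DNA-binding homeodomain of 60 residues, was found in the GENCODE M21 transcripts of all 38 genes (GRCm38), each time within the last exon. The homeobox of Hoxb9 is shown because Hoxb9 was the only HOX gene that edgeR's test called different between cKO and WT. That of its paralogue Hoxc9 is shown because its transcript shared the longest run of identical bases with Hoxb9. Capitals mark bases that differ from Hoxb9, which is printed in lower case as the reference, and both are written 5′ to 3′ on the coding strand.
Hoxb9: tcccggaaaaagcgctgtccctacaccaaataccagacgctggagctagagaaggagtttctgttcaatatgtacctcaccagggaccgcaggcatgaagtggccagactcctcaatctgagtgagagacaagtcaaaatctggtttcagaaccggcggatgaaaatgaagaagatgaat
Hoxc9: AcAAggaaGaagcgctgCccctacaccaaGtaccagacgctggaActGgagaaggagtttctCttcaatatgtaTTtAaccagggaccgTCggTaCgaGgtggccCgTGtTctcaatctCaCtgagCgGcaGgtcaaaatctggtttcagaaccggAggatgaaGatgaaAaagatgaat
These stretches lie at chr11:96274659-96274838 (Hoxb9) and chr15:102983930-102984109 (Hoxc9), both on the plus strand. Identity between them was 83.9%, against 53.3% to 75.0% between Hoxb9 and HOX genes of other paralogue groups. The longest run of identical bases that the Hoxc9 transcript shared with Hoxb9 was 50, against at most 29 for genes outside group 9. Within group 9, Hoxd9 had a homeobox identity of 84.4% to Hoxb9 and a longest run of 40. Hoxa9 had 81.7% and 17.

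The libraries held 15092619 to 17431546 counts in genes, with normalisation factors of 0.963 to 1.04. Across the 18383 genes that passed the filter on low counts, 615 (3.35%) differed between cKO and WT in edgeR's quasi-likelihood test at an adjusted p under 0.05, of which 276 (1.5%) were higher and 339 (1.84%) lower in cKO. Csnk1a1 measured 396, 405 and 377 CPM (counts scaled to library size) in cKO and 371, 396 and 348 CPM in WT (log2 fold change 0.08, edgeR adjusted p = 0.798). The deleted part of the gene is not given and other cells of the testis also carry this transcript, so the value does not check the labels. Of 14 Sertoli cell markers, 10 were lower in cKO (edgeR), and their summed level was 1734 to 2098 CPM in cKO against 3388 to 4456 CPM in WT. Amh, a Sertoli cell hormone, measured 168 ± 101 CPM in cKO and 897 ± 239 CPM in WT. Clu, the most abundant marker of that list, measured 507 ± 43.2 and 919 ± 177 CPM (SD, n = 3 each). In whole tissue, fewer cells of a type and less RNA per cell cannot be told apart.

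The level of each HOX gene was read from the deposited FPKM values, fragment counts scaled to transcript length and to library size, which allow genes of different length to be compared. Most HOX transcript came from HoxD, and from HoxC after it. Averaged over the 6 libraries, 5 HOX genes exceeded 10 FPKM, 11 lay between 1 and 10 FPKM and 22 were under 1 FPKM. Hoxd9 was the highest and Hoxd8, its neighbour in the cluster, the second. Hoxd9 measured 62.3, 70.5 and 65.9 FPKM in cKO and 56.1, 67.3 and 50.2 FPKM in WT. Hoxd8 measured 31.5, 37.7 and 33.4 FPKM in cKO and 29.6, 33.6 and 28.2 FPKM in WT. Together they made up 46.6% to 61.7% of all HOX FPKM in a library, with 53.5% ± 7.60 in cKO and 51.6% ± 2.9 in WT (SD, n = 3 each).

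The next genes in order of level were Hoxc6 and Hoxc4, which encode HOX factors of the middle and anterior classes. Hoxc6 measured 21.5, 12.6 and 16.8 FPKM in cKO and 17.3, 18.2 and 18.7 FPKM in WT. Hoxc4 measured 14.6, 8.48 and 11.4 FPKM in cKO and 10.7, 10.3 and 9.96 FPKM in WT. For both, cKO 1 was the highest and cKO 2 the lowest of the 6 libraries, and the WT values lay between. Hoxd10, a posterior gene adjacent to Hoxd9, measured 9.95, 6.72 and 12.4 FPKM in cKO and 10.1, 14.2 and 9.49 FPKM in WT, with overlapping groups. Hoxc8 measured 9.70, 5.76 and 8.34 FPKM in cKO and 6.63, 6.41 and 7.55 FPKM in WT, and again the lowest and highest values both belonged to cKO libraries.

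Hoxc5 measured 5.56, 4.47 and 5.13 FPKM in cKO and 5.55, 4.36 and 5.52 FPKM in WT. Hoxd4 measured 4.29, 3.87 and 4.53 FPKM in cKO and 4.40, 3.52 and 3.68 FPKM in WT. Hoxc10 measured 2.5, 2.84 and 3.29 FPKM in cKO and 1.54, 3.60 and 3.10 FPKM in WT. In all of these genes the groups overlapped, and they completed, with Hoxb9, the 10 HOX genes of highest level. The annotated Hoxc5 entry overlaps those of Hoxc6, Hoxc8, Hoxc9 and Hoxc10, and that of Hoxd3 contains that of Hoxd4. How reads in shared stretches were assigned is not given, so the levels of these genes are uncertain. In all, 10 HOX genes overlapped another HOX gene and 13, Hoxd8 among them, overlapped an entry on the opposite strand. Some genes belonged to both of these groups, and some, Hoxd10 among them, overlapped only a non-HOX entry on their own strand. Counting any overlap, 22 HOX genes overlapped another entry. The other 16, including Hoxb9 and Hoxd9, overlapped no other entry.

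Summed by paralogue number, FPKM was concentrated in groups 4 to 6 and 8 to 10. Group 9 gave 79.9 ± 1.58 FPKM in cKO and 65.6 ± 9.14 FPKM in WT, and group 8 gave 42.7 ± 1.13 and 37.8 ± 2.14 FPKM (SD, n = 3 each). Group 6 gave 19.0 ± 5.29 and 20.3 ± 0.419 FPKM, group 4 18.4 ± 3.38 and 16.46 ± 1.17 FPKM, and group 10 13.1 ± 2.76 and 14.6 ± 3.68 FPKM. The sum of group 4 held no Hoxa4 entry. Levels were low at both ends of the numbering. Group 1 gave 1.11 ± 0.161 FPKM in cKO and 1.41 ± 0.174 FPKM in WT, and group 2 0.701 ± 0.271 and 0.526 ± 0.300 FPKM. Group 11 gave 1.02 ± 0.214 and 1.13 ± 0.146 FPKM, group 12 0.493 ± 0.460 and 0.343 ± 0.105 FPKM, and group 13 0.537 ± 0.0594 and 0.820 ± 0.161 FPKM. The fall from group 10 to group 11 was seen in both genotypes. Across HoxD, mean FPKM fell from 62.1 for Hoxd9 and 10.5 for Hoxd10 to 0.973 for Hoxd11, 0.0225 for Hoxd12 and 0.139 for Hoxd13.

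The comparison of cKO with WT asks which HOX genes differed in the conditional knockout. Of the 38 genes, 30 passed the filter on low counts, and 8 did not (Hoxc11, Hoxc12, Hoxd12 and Hoxd13 among them), with 6 to 41 counts over all libraries. Of the 30, 1 rose and 0 fell in cKO by edgeR (threshold 0.05 on the adjusted p), which is 3.33% beside 3.35% over all tested genes. At an unadjusted p under 0.05 it was likewise 1 of 30 (3.33% beside 15.8% of all tested genes), and 2 of 30, Hoxb9 and Hoxa5, had 3 cKO values apart from the 3 WT values (6.67% beside 21.6%). The p-values set each difference against the spread between these animals. The log2 fold change was positive for 14 and negative for 16 of the 30, with a median of -0.02 beside 0.00 over all tested genes. DESeq2 also called Hoxb9 alone among the HOX genes, and limma-voom called none (adjusted p = 0.0578 for Hoxb9).

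Hoxb9, a posterior-class gene known for patterning the thoracic skeleton and for expression in the urogenital ridge, was higher in cKO. Its entry lies at chr11:101661426-101666564 on the plus strand. It measured 41.4, 17.1 and 25.2 CPM in cKO and 14.0, 9.31 and 9.21 CPM in WT. Every cKO value lay above every WT value, though cKO 2 was close to WT 1. The cKO animals averaged 27.9 ± 12.3 CPM and the WT animals 10.8 ± 2.74 CPM (SD, n = 3 each), a log2 fold change of 1.36 (SE 0.300, 95% interval 0.70 to 2.02, edgeR adjusted p = 0.0308). By size it stood at place 85 of the 276 genes that were higher. The direction was the same in 16 of 16 alternative settings, and the call held in 8 of them. Leaving out 1 library ended the call in 5 of 6 cases. The adjusted p was 0.0505 without cKO 1, where the log2 fold change was 0.97, 0.0937 without cKO 3, 0.0572 without WT 1, 0.124 without WT 2 and 0.178 without WT 3.

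**Figure D1:**
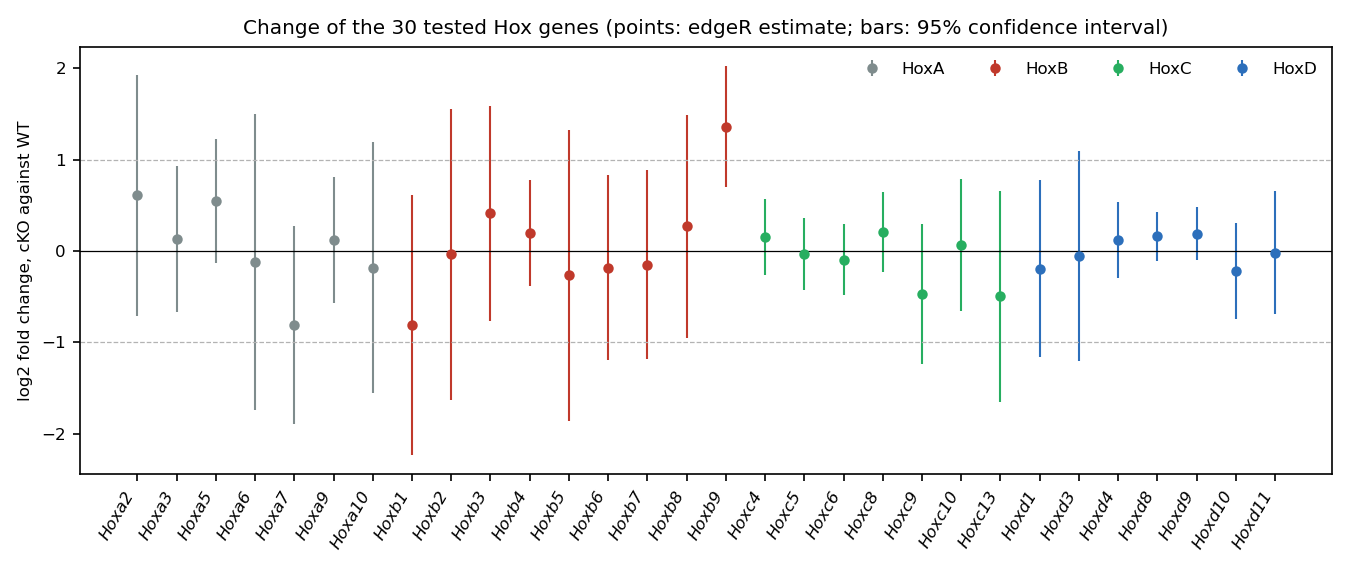
Log2 fold change of cKO against WT for the 30 tested HOX genes in order of cluster and paralogue number, with points for the edgeR estimate and bars for its 95% confidence interval. The interval of Hoxb9 (0.70 to 2.02) is the only one that lies wholly on one side of 0, and intervals are widest for genes of low level.

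The other 8 tested genes of HoxB had no call. With the untested Hoxb13, the 9 other HoxB genes summed to 15.8 ± 1.76 CPM in cKO and 15.5 ± 3.44 CPM in WT (SD, n = 3 each). Hoxb9 made up 52.9% to 70.0% of the summed HoxB CPM in cKO libraries and 37.0% to 43.6% in WT libraries. Hoxb8, whose entry begins 5.300 kb beyond the end of Hoxb9, had a log2 fold change of 0.27 (adjusted p = 0.863, edgeR). Hoxb4, the next HoxB gene in level, measured 6.98, 6.52 and 6.04 CPM in cKO and 6.60, 4.12 and 6.28 CPM in WT (log2 fold change 0.20, edgeR adjusted p = 0.773). Hoxb5 had 1 count in cKO 2 and 0.379 to 0.532 FPKM in the 5 other libraries. Hoxb1 had the most negative HoxB log2 fold change, -0.81 with a 95% interval of -2.23 to 0.61.

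**Figure D2:**
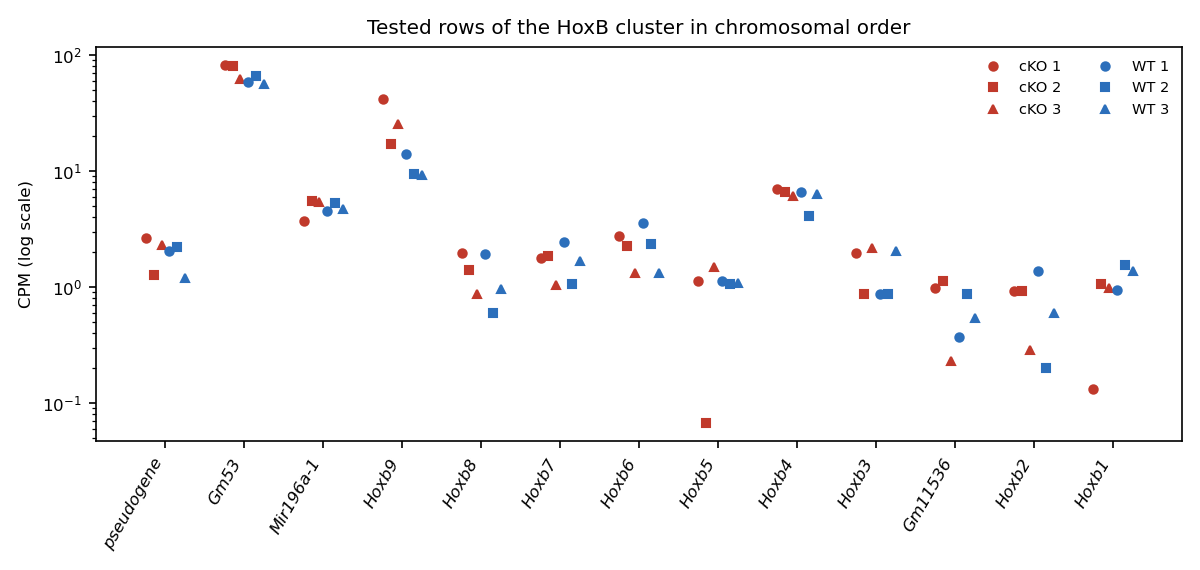
CPM (log scale) of the tested entries of the HoxB cluster in chromosomal order, with cKO in red, WT in blue and one symbol per animal. The 3 cKO points of Hoxb9 (17.1 to 41.4 CPM) lie above its 3 WT points (9.21 to 14.0 CPM), while at the neighbouring HOX genes Hoxb8 to Hoxb1 the colours overlap.

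The paralogues of Hoxb9 had no call. Hoxd9 measured 134, 152 and 142 CPM in cKO and 122, 145 and 108 CPM in WT, and the groups overlapped (log2 fold change 0.19, SE 0.131, edgeR adjusted p = 0.533). Hoxa9 measured 4.68, 4.25 and 5.46 CPM in cKO and 3.67, 6.25 and 3.35 CPM in WT (log2 fold change 0.12). Hoxc9 measured 6.32, 2.93 and 5.41 CPM in cKO and 4.29, 8.52 and 7.54 CPM in WT (log2 fold change -0.47, 95% interval -1.24 to 0.30). Reads from stretches that paralogues share, such as those of Hoxb9 with Hoxc9 or with Hoxd9, could be counted for either gene. The sources used here do not give the read length.

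Among the other 29 tested genes, log2 fold changes ran from -0.81 (Hoxa7) to 0.61 (Hoxa2), and the smallest adjusted p was 0.429 (Hoxa5). For 13 of the 29, the 95% interval lay within 1 log2 unit of 0. These 13 included Hoxd9 (-0.10 to 0.48), Hoxd8 (-0.11 to 0.43), Hoxc6 (-0.49 to 0.30), Hoxc4 (-0.26 to 0.57) and Hoxd10 (-0.74 to 0.30). For the other 16, which had mean levels of up to 2.43 FPKM, the interval reached beyond 1 log2 unit, so a change of that size could not be told from none with the counts of these genes and the spread between these animals. A p that misses the threshold does not show that the genotypes were alike.

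Hoxa5, an anterior-class gene with known functions in lung and skeleton, measured 3.95, 4.72 and 3.68 CPM in cKO and 2.99, 2.33 and 3.11 CPM in WT. All cKO values exceeded all WT values, yet the difference did not pass the test (log2 fold change 0.55, SE 0.306, edgeR adjusted p = 0.429). Hoxa7 measured 2.83, 1.40 and 0.748 CPM in cKO and 3.67, 2.86 and 2.15 CPM in WT, with overlapping groups (log2 fold change -0.81, edgeR adjusted p = 0.473). Hoxd3 showed the widest spread among the HOX genes above 1 FPKM, with 13.8, 2.13 and 5.46 CPM in cKO and 9.21, 4.66 and 8.31 CPM in WT.

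Of the 8 genes left untested, Hoxc11 had 0 counts in all 3 cKO libraries and 2, 2 and 8 counts in WT. A count of 0 allows up to 3 counts over the cKO group (0.0630 CPM, counting error only), and 8 of the 12 WT counts were in WT 3, so no fold is given. Hoxd12 had 6 counts, all in cKO 3. The highest FPKM of any untested gene in any library was 0.775, in Hoxc12.

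Summed CPM per cluster differed between genotypes by less than 1 SD for HoxA, with 19.5 ± 2.57 in cKO and 18.8 ± 1.54 in WT, and for HoxC, with 121 ± 28.0 and 120 ± 5.07 (SD, n = 3 each). HoxD summed to 280 ± 7.68 CPM in cKO and 255 ± 28.9 CPM in WT. HoxB summed to 43.6 ± 13.8 and 26.4 ± 5.93 CPM, Hoxb9 included. These sums were compared without a test. The SD of HoxC in cKO came from the contrast between 148 CPM in cKO 1 and 91.7 CPM in cKO 2, and the WT libraries ran from 116 to 126 CPM.

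The libraries also differed in HOX level within a genotype, and the shares that follow were compared without a test. The library cKO 2 was the lowest of the 6 for 11 of the 30 tested HOX genes (36.7%, beside 26.0% of all tested genes), among them 5 of the 7 tested HoxC genes. The library cKO 1 was the highest for 10 of the 30 (33.3%, beside 20.7%), and WT 3 was the highest for 0 (beside 17.7%). The library WT 2 was the lowest for 7 of the 30 (23.3%, beside 9.53%). In HoxA, HoxB and HoxD, cKO 2 was the lowest for 2 of 7, 2 of 9 and 2 of 7 tested genes. Hoxd9 and Hoxd8 ranked the 6 libraries identically, from cKO 2 at the top through WT 2, cKO 3, cKO 1 and WT 1 to WT 3. Of the 30 genes, 6 shared their full order with another, in pairs: Hoxd8 with Hoxd9, Hoxa3 with Hoxc8, and Hoxb4 with Hoxb8. The orders were compared after the values had been seen.

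**Figure D3:**
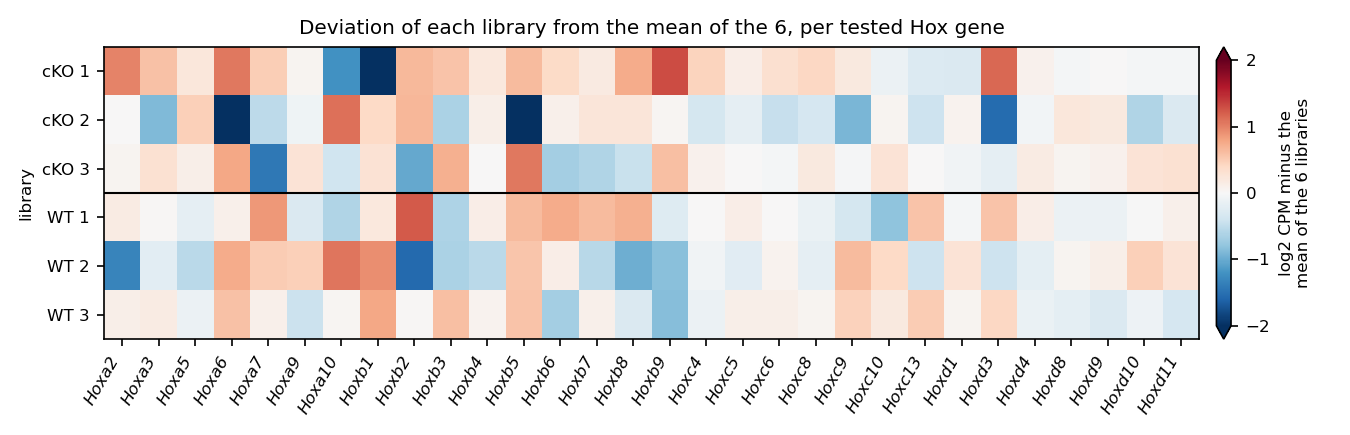
Difference of log2 CPM from the mean of the 6 libraries for each of the 30 tested HOX genes, with 1 horizontal band per library, cKO above the black line and WT below it, red for above and blue for below the mean. The band of cKO 2 is blue across most of HoxC, and the Hoxb9 column is red in cKO 1 and cKO 3, near the mean in cKO 2 and blue in the 3 WT bands.

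The promoters of the gene pair of highest level are shown because both genes ranked the libraries alike. They are RefSeq windows of 300 bases (GRCm38.p6), 250 before and 50 after the annotated start, on the plus strand at chr2:74697513-74697812 for Hoxd9 and chr2:74704365-74704664 for Hoxd8, with each CG dinucleotide in capitals.
Hoxd9: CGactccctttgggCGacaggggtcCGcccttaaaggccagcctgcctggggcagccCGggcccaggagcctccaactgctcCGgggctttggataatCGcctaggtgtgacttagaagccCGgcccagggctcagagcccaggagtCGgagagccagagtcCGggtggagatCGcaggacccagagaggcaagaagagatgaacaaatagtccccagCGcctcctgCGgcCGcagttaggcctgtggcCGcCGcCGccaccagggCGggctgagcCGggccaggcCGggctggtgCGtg
Hoxd8: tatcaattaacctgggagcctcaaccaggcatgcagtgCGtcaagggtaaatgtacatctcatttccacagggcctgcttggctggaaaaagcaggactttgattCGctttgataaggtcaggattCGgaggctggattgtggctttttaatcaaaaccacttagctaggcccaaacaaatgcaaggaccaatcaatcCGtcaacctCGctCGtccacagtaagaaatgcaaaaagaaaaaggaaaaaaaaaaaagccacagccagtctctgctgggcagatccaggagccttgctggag
The Hoxd9 window held 20 CG dinucleotides and the Hoxd8 window 6. RefSeq windows were matched for 22 of the 38 genes (24 windows), with a median of 14.5 CG beside 7 over all 32851 windows, and a range of 4 to 45. The motif CTTTGAA or CTTTGAT, a core sequence bound by the TCF/LEF factors of Wnt signalling, was searched on both strands. It was found in 3 of the 24 windows (12.5%, beside 8.65% of all windows), namely those of Hoxd8, Hoxd12 and Hoxa11. TATAAA, on both strands, was found in 4 (16.7%, beside 13.6%). No window was matched for Hoxb9.

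Within the cluster spans lay 48 other entries, of which 13 passed the filter. The tools edgeR, DESeq2 and limma-voom called 0 of them, and 1 had an unadjusted p under 0.05 in edgeR. This was Gm53, a long noncoding RNA that ends 9.671 kb before Hoxb9 begins, named after its values were seen. It measured 81.9, 80.1 and 61.8 CPM in cKO and 58.4, 65.2 and 55.6 CPM in WT (log2 fold change 0.32, edgeR adjusted p = 0.294). Hotairm1, an antisense RNA at the anterior end of HoxA, had a log2 fold change of 0.33 (adjusted p = 0.839, edgeR). Hoxd3os1, antisense to Hoxd8, Hoxd3 and Hoxd4, had one of -0.01 (adjusted p = 0.992, edgeR). The Mir196a-1 entry of HoxB averaged 4.85 CPM (cKO) and 4.86 CPM (WT), which are counts of polyadenylated RNA at the locus that do not measure the mature microRNA.

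The regulators and partners of HOX genes were read from 7 lists with 93 matched and 88 tested genes, of which 3 were higher and 1 lower in cKO. Over all tested genes, 1.5% were called higher, 1.84% were called lower and 15.8% had an unadjusted p under 0.05. The counts for each list below stand beside these shares. Of the 9 TALE cofactors, 0 were called by edgeR, DESeq2 or limma-voom, and 2 had an unadjusted p under 0.05 (median log2 fold change 0.18). They were Pbx3 at 75.4 ± 18.5 CPM in cKO and 52.4 ± 1.87 in WT (edgeR adjusted p = 0.140), and Meis1 at 83.9 ± 7.47 and 67.4 ± 2.58 CPM (edgeR adjusted p = 0.211), with SD over 3 animals each. Both had every cKO value above every WT value, and in 21.6% of all tested genes the 2 groups were apart in either direction.

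Polycomb repressive complexes place and read the marks that keep HOX genes silent. Of 11 tested genes of complex 2, 0 were called by any of the 3 tools and 1 had an unadjusted p under 0.05 (median log2 fold change 0.00). The lowest p-values there belonged to Ezh1, a catalytic subunit (log2 fold change -0.31, edgeR adjusted p = 0.284), and Phf1, an accessory subunit (0.37, edgeR adjusted p = 0.339). Of 16 genes of complex 1, 0 were called by edgeR or limma-voom and 4 had an unadjusted p under 0.05 (median -0.07). Cbx6, a chromodomain subunit, measured 246 ± 3.08 CPM in cKO and 178 ± 28.4 CPM in WT (SD, n = 3 each; edgeR adjusted p = 0.0936) and was called by DESeq2. Cbx2, its relative, measured 56.8 ± 4.46 and 70.0 ± 4.80 CPM (edgeR adjusted p = 0.251). Of 10 trithorax and H3K27 demethylase genes, which act in favour of HOX transcription, 0 were called by any tool and 0 had an unadjusted p under 0.05 (median -0.09). The lowest p-values were those of the methyltransferase genes Kmt2b (-0.28, edgeR adjusted p = 0.442) and Ash1l (-0.19, edgeR adjusted p = 0.493).

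Among 16 tested genes of the retinoic acid and CDX list, 2 were higher and 0 lower in cKO by edgeR (median log2 fold change 0.18). An unadjusted p under 0.05 in edgeR was reached by 9 of the 16, 6 in the higher and 3 in the lower direction, beside 15.8% of all tested genes. Stra6, the cell-surface receptor for retinol uptake, measured 155, 90.4 and 127 CPM in cKO and 39.5, 34.5 and 42.9 CPM in WT (log2 fold change 1.67, edgeR adjusted p = 0.000525). Aldh1a3, a retinaldehyde dehydrogenase that makes retinoic acid, measured 24.0, 19.3 and 18.6 CPM in cKO and 11.1, 9.98 and 6.16 CPM in WT (log2 fold change 1.18, edgeR adjusted p = 0.0182). In both genes the genotypes were apart, as they were in 21.6% of all tested genes. DESeq2 called 4 genes of this list higher, adding Rarb and Rarg, which encode retinoic acid receptors, and 2 lower (Aldh1a1 and Cyp26b1). With the replicate number as a block, Cyp26b1, which degrades retinoic acid, was lower (log2 fold change -0.96, edgeR adjusted p = 0.00412), as was Aldh1a1 (-0.59, edgeR adjusted p = 0.0376).

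Of 14 tested HOX downstream and partner genes of the urogenital tract, 1 was higher and 1 lower by edgeR (median log2 fold change 0.30), and DESeq2 also called Osr1 higher. An unadjusted p under 0.05 in edgeR was reached by 5 of the 14, 3 in the higher and 2 in the lower direction, beside 15.8% of all tested genes. Emx2, a homeobox gene needed for the urogenital ridge, measured 35.2, 23.5 and 28.9 CPM in cKO and 15.4, 13.0 and 13.5 CPM in WT (log2 fold change 1.06, edgeR adjusted p = 0.00839). Gdnf, a growth factor of Sertoli cells and of the kidney mesenchyme, measured 13.4, 11 and 9.26 CPM in cKO and 31.8, 47.3 and 38.5 CPM in WT (-1.80, edgeR adjusted p = 0.00048). Neither pair of groups overlapped, as was so for 21.6% of all tested genes. Of 12 tested genes that flank the clusters, 0 were called by any of the 3 tools and 1 had an unadjusted p under 0.05 (median -0.03). They included Tax1bp1 (-0.27, edgeR adjusted p = 0.254) and Snx10 (-0.31, edgeR adjusted p = 0.459), both beside HoxA.

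Marker lists of ducts, stroma and coelomic epithelium were also summed. The mesonephric and epididymal ducts lie against the testis and are known to express posterior HOX genes. Their markers summed to 60.8 to 62.3 CPM in cKO and 46.5 to 48 CPM in WT. Of 10 tested, only 6 had a positive log2 fold change, and 0 were called by edgeR or limma-voom. Krt19 was called by DESeq2, and 2 had an unadjusted p under 0.05 in edgeR, both in the higher direction. Pax8, a defining duct gene, measured 13.2 ± 2.91 and 8.94 ± 1.22 CPM, and Pax2 7.12 ± 1.5 and 5.81 ± 0.410 CPM (SD, n = 3 each). Interstitial and stromal markers summed to 13209 to 21063 CPM in cKO and 8954 to 14282 CPM in WT, with overlapping groups. Of these, edgeR called 2 of 12 higher, Lum among them, beside 1.5% of all tested genes. An unadjusted p under 0.05 in edgeR was reached by 10 of 12, all in the higher direction, beside 15.8% of all tested genes. The log2 fold change was positive for 12 of 12. Coelomic epithelium markers summed to 269 to 329 CPM in cKO and 246 to 284 CPM in WT, with overlapping groups. Of 8 tested, 0 were called by edgeR, and Krt19 was called by DESeq2. An unadjusted p under 0.05 in edgeR was reached by 1 gene in the higher and 1 in the lower direction. The part of these cells in the change of Hoxb9 was not tested.

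The other marker lists were summed in the same way, and no matched marker was at 0 in all libraries. Fetal Leydig cell markers gave 5018 to 6861 CPM in cKO and 3939 to 4633 CPM in WT, with 6 of 7 log2 fold changes positive. An unadjusted p under 0.05 was reached by 4 genes of this list in the higher direction and by 1 in the lower. Hsd17b3 was called lower by edgeR, while limma-voom also called Cyp11a1 higher and DESeq2 Cyp11a1 and Insl3. Which cells of these testes carried Hsd17b3 was not tested, so its fall is not read as a Leydig cell change. Calls named for the lists that follow are edgeR's. Peritubular and smooth muscle markers gave 1129 to 1297 and 1255 to 1455 CPM, with Des higher and Ptch1 lower. Endothelial markers gave 587 to 690 and 550 to 620 CPM, with Kdr higher, and germ cell markers 662 to 1094 and 984 to 1403 CPM, with Mov10l1 lower. Nerve and Schwann cell markers gave 31.1 to 39.8 and 67.6 to 77.4 CPM, with Sox10 and Tubb3 lower. Macrophage (66.9 to 76.5 and 57.8 to 77.1 CPM), adrenal cortex (28.6 to 56.4 and 26.3 to 48.7 CPM) and skeletal muscle and limb markers (4.39 to 12.1 and 5.26 to 20.2 CPM) had 0 calls by edgeR, DESeq2 or limma-voom, with 1, 0 and 0 genes at an unadjusted p under 0.05 in edgeR.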

How the data were processed

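Messenger RNA of whole testis from 6 animals was selected with poly-T beads and sequenced on an Illumina NovaSeq, per the labels' protocols. Reads were aligned with HISAT2 2.0.5 to GRCm38, per the submitters' processing notes. How fragments were counted, with which strand setting and read length, the sources used here do not say. Gene identifiers and coordinates are those of a C57BL/6NJ annotation, per the file headers and identifiers, and were not converted. The authors deposited whole-number counts per gene and FPKM values per gene, 1 column per animal.

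Counts were tested with edgeR 4.0.16 (R 4.3.3): filterByExpr, TMM normalisation, quasi-likelihood F test of cKO against WT with all 6 libraries and no covariate, and Benjamini-Hochberg adjustment over 18383 genes with a threshold of 0.05. CPM used TMM library sizes, and FPKM was used for levels between genes only. The biological coefficient of variation was 19.7%. Counts of libraries within a group differed by 12.4 to 37.9 per degree of freedom in a chi-square test, so none was a duplicate. Alternatives were DESeq2 1.42.0, limma 3.58.1 (voom on counts, trend on log2 FPKM plus 0.1 or 1), other scalings, no low-count filter or a mean of at least 1 CPM, the replicate number as a block, and each library left out. On simulated counts for 18383 genes with 200 changed, the test recovered 35% of changes of 1 log2 unit and 83% of changes of 2, with 9 false among 127 calls.

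Values per library are given for called genes, for the 10 genes of highest mean FPKM and for those with an unadjusted p under 0.05, with others chosen for their spread or overlap after the values were seen. Of each related list, every gene called by edgeR is named, or else the 2 with the smallest p, and further genes called by DESeq2 or with the block were named after their calls were seen. Of the marker lists, called genes are named, apart from those not reported here, and other members are given by counts and sums, with Lnpk, Muc16 and Cyp21a1 unmatched by symbol. The HOX genes and all lists were chosen with earlier results of these data known. An unnamed protein-coding entry in HoxA, annotated to the homeobox family, was not assigned to a gene. It lies at chr6:52566022-52568088 on the minus strand, inside the Hoxa3 entry, with Hoxa5 the next HOX gene at higher coordinates. Its mean level was 0.849 FPKM and it had no call (log2 fold change 0.49, edgeR adjusted p = 0.647). Whether it is the missing Hoxa4 was not tested. Results for some items are not reported here.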

Additional observations from a re-analysis of the deposited data

How the results depend on the processing

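Among the 30 tested HOX genes, Hoxb9 kept its positive direction in 16 of 16 alternatives, and none was lower in any. No HOX gene was higher with limma-voom (0) or limma-trend at either pseudocount (0; adjusted p for Hoxb9 0.101 and 0.107), and 0 to 1 were higher with 1 library left out, 1 only without cKO 2. The Hoxb9 log2 fold change ran from 0.97 to 1.62 with 1 library left out. Genes of the related lists called higher numbered 3, against 7 with DESeq2, 8 with no low-count filter and, with 1 library left out, 1 (without WT 3) to 6 (without cKO 2). Those called lower numbered 1, against 3 with DESeq2, 3 with no filter and, with 1 library left out, 1 to 2 (2 without cKO 2). Over all genes, higher calls numbered 276, against 524 with DESeq2, 613 with no filter, 149 and 156 with limma-trend, and 105 to 180 without cKO 3 or any WT library. Lower calls numbered 339, against 571, 651, 223 (limma-trend plus 0.1) and 167 to 218. The cause was not tested.

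HOX genes without a call changed sign as follows. Hoxb2 (-0.04) was 0.11 with limma-voom, 0.075 and 0.0038 with limma-trend, and 0.064 with the replicate block. With 1 library left out, log2 fold changes ran from -0.46 to 0.80 for Hoxb2, -0.30 to 0.083 for Hoxc6, -0.054 to 0.34 for Hoxc4, -0.13 to 0.052 for Hoxc5, -0.95 to 0.38 for Hoxd3, -0.22 to 0.31 for Hoxc10, -0.16 to 0.46 for Hoxa3, -0.046 to 0.46 for Hoxa9, -0.19 to 0.13 for Hoxd11, -0.48 to 0.22 for Hoxb6, -1.06 to 0.40 for Hoxa10, -0.39 to 0.18 for Hoxb7, -0.048 to 0.85 for Hoxb8, -0.86 to 0.27 for Hoxb5 and -0.60 to 0.42 for Hoxa6. Cluster sums moved by less than 1 SD with library totals or FPKM, HoxC turning from 0.01 to -0.01 with library totals.

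Replicate numbers are shared by the groups but no label says what they mark. Deviations of same-numbered libraries correlated at 0.0172, 0.184 and 0.0325, and cKO 1 correlated best with WT 3 (0.157). With the replicate number as a block, Hoxb9 stayed called (log2 fold change 1.31, adjusted p = 0.00482, edgeR), related genes called higher stayed at 3 and those called lower went from 1 to 3.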
